A study of Mus musculus with 12 samples.

Results

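The genes described here are 10 genes of the p53 response: the p53 gene itself, *Trp53*, and 9 of its transcriptional targets, *Cdkn1a*, *Mdm2*, *Ccng1*, *Bax*, *Phlda3*, *Sesn1*, *Zmat3*, *Trp53inp1* and *Eda2r*. They were listed by symbol and not by a cutoff on a measured value, but with earlier results of these data known. All 10 were found among the 31114 genes that could be assembled from the deposited transcript estimates. RNA was sequenced from 12 livers of hFIX-R29X mice, a hemophilia B model that lacks the mouse factor IX gene and carries a minigene of human factor IX interrupted by a nonsense codon, so every liver compared shares both alleles. 4 mice received DPBS, the buffer, 4 received Control-GalNAc-ASO at 15 mg/kg and 4 received Upf3b-GalNAc-ASO at 10 mg/kg. Each mouse was 8 to 14 weeks old, was injected 6 times at intervals of 5 days and was sampled 48 h after the last injection. In every group replicates 1 and 2 were female and replicates 3 and 4 were male. There was 1 dose of each oligonucleotide and the doses differed, and the whole liver was sampled, so fewer cells of a type and less RNA per cell cannot be told apart.

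p53 is a transcription factor that is held at a low level by the ubiquitin ligase MDM2 and accumulates after DNA damage, oncogene activity or disturbed ribosome assembly. It then switches on genes that halt the cell cycle, favour apoptosis, repair DNA or adjust metabolism, and also genes such as *Mdm2* that bring p53 down again. UPF3B, the target of the active oligonucleotide, is a component of nonsense-mediated mRNA decay (NMD), the pathway that degrades mRNAs with a premature stop codon. The comparison with the control ASO asks which mRNAs differ when *Upf3b* is depleted, and the comparison of both with DPBS separates out what an oligonucleotide of the same chemistry does on its own.

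The sequences that carry this question are the oligonucleotides and the p53 half-sites near the starts of the members. The ASOs are printed 5′ to 3′ as the study lists the unconjugated oligonucleotides, with the 3 constrained-ethyl bases of each wing in capitals and the 10 DNA bases of the gap in lower case, and the GalNAc-conjugated forms are assumed to have the same bases.
Upf3b-ASO: GGAtatagatgtaACG
Control ASO: GGCcaatacgccgTCA
The transcript sequences of the GENCODE M21 annotation were searched. A perfect complement of the Upf3b-ASO was found in 1 of them, Upf3b-201, in its 3' UTR in exon 10 of 10. The site lies at X:37091973-37091988 on the minus strand of GRCm38. The complement of the control ASO was found in 0 transcripts of that annotation. Deposited transcripts outside the annotation were not searched. None of the 37 transcripts of the 10 p53 genes held the complement of either oligonucleotide, a search for perfect matches in mature transcripts only.

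The p53 half-site is a sequence of 10 letters, 3 purines, then C, A or T, A or T, G, and 3 pyrimidines, which reads the same on both strands as a consensus. RefSeq promoter windows of 300 bases on GRCm38.p6, 250 before and 50 after each transcription start, were available for 8 of the 10 members, in 10 windows. A half-site was present in the windows of 6 members, *Bax*, *Sesn1*, *Mdm2*, *Ccng1*, *Trp53* and *Cdkn1a*, and no match was found in the windows of *Phlda3* and *Eda2r*. Among all 27025 genes with a window, 9.55% held a half-site, and 8.36% of all 32851 windows did. The sites are shown here to place the members that rose against those that did not, with the 10 matching letters in capitals and 10 flanking letters on each side. They began 201 bases before the start in *Bax*, 186 in *Mdm2*, 173 before the downstream start in *Sesn1* and 75 in *Trp53*. The window of the upstream *Sesn1* start held no half-site.
Bax, chr7:45467090-45467099, minus strand: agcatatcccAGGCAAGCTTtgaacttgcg
Mdm2, chr10:117710935-117710944, minus strand: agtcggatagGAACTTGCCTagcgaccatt
Sesn1, chr10:41887266-41887275, plus strand: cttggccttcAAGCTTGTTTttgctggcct
Trp53, chr11:69580284-69580293, plus strand: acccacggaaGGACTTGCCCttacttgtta

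A full p53 response element is a pair of half-sites, and the windows were therefore also searched for 20 letters that differ from an adjacent pair in at most 1 letter, a search added after the single half-sites had been seen. Such a pair was present in the windows of *Ccng1* and *Cdkn1a*, and in 29 of all windows, or 0.0883%. It began 195 bases before the start in *Ccng1* and 51 before the upstream start in *Cdkn1a*, and is printed with the 20 letters in capitals. The window of the downstream *Cdkn1a* start, chr17:29093519-29093818, held neither a half-site nor a pair.
Ccng1, chr11:40755462-40755481, minus strand: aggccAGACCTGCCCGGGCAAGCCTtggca
Cdkn1a, chr17:29090928-29090947, plus strand: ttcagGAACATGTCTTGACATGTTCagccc
These are matches of letters. Binding of p53 was not measured in these livers, and the absence of a match concerns these windows only.

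The libraries held 17642996 to 20387682 estimated counts in the 8 reference livers and 13277892 to 17054313 in the 4 Upf3b-ASO livers. The targeted gene separated the groups. *Upf3b* stood at 10.4, 9.38, 13.4 and 10.9 CPM (counts scaled to library size) in DPBS livers 1 to 4, at 8.58, 9.56, 7.93 and 12 after the control ASO, and at 1.58, 0.651, 0.999 and 0.662 after the Upf3b-ASO, 10 to 22 counts a liver. It fell by 3.30 ± 0.27 (SE) on the log2 scale against the control ASO (edgeR quasi-likelihood test, Benjamini-Hochberg adjusted p = 7.43e-05). Control ASO replicate 3, a male, stood apart from the other control livers. The summed level of 16 acute-phase genes was 96742 CPM in it, against 13564 to 18615 in the 3 other control livers, 12643 to 19697 in the DPBS livers and 12977 to 15929 in the Upf3b-ASO livers, and results for the p53 genes are therefore given with and without that liver. The sum of 9 hepatocyte markers was 91944 to 117710 CPM in the DPBS livers, 87567 to 117201 in the control ASO livers and 72086 to 105115 in the Upf3b-ASO livers. It was 102725 in control ASO replicate 3, and no hepatocyte marker was at 0 in all 12 livers. Summed markers of other cells ran from 273 to 727 CPM for Kupffer cells, 306 to 438 for endothelial cells, 305 to 677 for stellate cells, 19.1 to 75.0 for leukocytes and 211 to 2996 for erythroid cells, and cholangiocyte markers from 18.8 to 34.5 in 11 livers with 55.0 in control ASO replicate 3. The highest Kupffer, endothelial, stellate, leukocyte and erythroid sums each lay in a control ASO liver other than replicate 3.

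At rest the members covered a wide range of levels. On the TPM scale (a transcript's abundance corrected for its length and scaled to the library), the mean in DPBS livers was highest for *Trp53inp1*, at 50.6 ± 19.8 (SD, n = 4), followed by *Mdm2* at 20.5 ± 1.06, *Ccng1* at 18 ± 3.92 and *Bax* at 16.1 ± 2.14. *Sesn1* stood at 8.71 ± 1.86 and *Trp53* at 5.48 ± 1.41. *Zmat3* at 1.27 ± 0.610, *Eda2r* at 1.0 ± 0.639, *Phlda3* at 0.708 ± 0.370 and *Cdkn1a* at 0.574 ± 0.325 were the 4 lowest, and their ranges over the DPBS livers overlapped. Those 4 did not reach 5 TPM in 4 of the 12 livers, the minimum used for the transcriptome-wide test, so the 10 members were also tested with a minimum of 10 estimated counts in 4 livers, which all 10 passed. Both tests were fitted over all genes that passed, 8846 and 14058 of them.

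**Figure D1:**
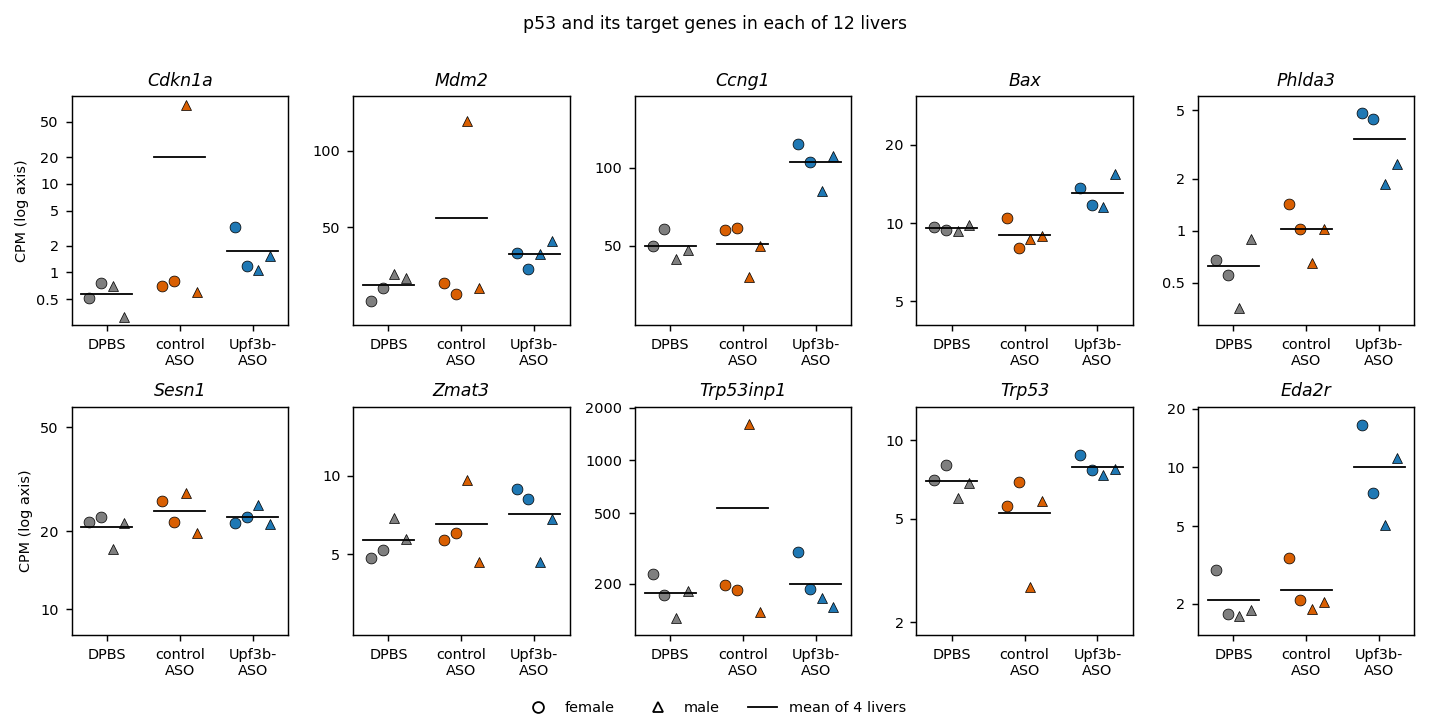
Level of each of the 10 p53 genes in each of the 12 livers, as CPM on a log axis. Points are single livers by group, circles for females and triangles for males, and short lines are group means. The 4 Upf3b-ASO livers lie above all other livers for Ccng1, Bax, Phlda3 and Eda2r, and control ASO replicate 3 lies far above the rest for Cdkn1a, Trp53inp1 and Mdm2.

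4 of the 10 genes, *Ccng1*, *Bax*, *Phlda3* and *Eda2r*, were higher after Upf3b-ASO treatment than after the control ASO, and the same 4 were higher than after DPBS. None was lower. With the count minimum this was 4 of 10 members called higher in each comparison, where 2.82% of all genes were called higher against the control ASO and 2.47% against DPBS. With the TPM minimum it was 2 of 6, *Ccng1* and *Bax*, against backgrounds of 4.34% and 3.57%. In these 4 genes each of the 4 Upf3b-ASO livers lay above all 8 others, a pattern shown by 3.63% of the 14058 genes. The comparisons with the control ASO and with DPBS share the Upf3b-ASO livers and are not independent.

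*Ccng1* encodes cyclin G1, an inducible partner of protein phosphatase 2A that acts back on MDM2. It stood at 50, 58.2, 44.4 and 48.1 CPM in the DPBS livers, at 57.4, 58.7, 37.9 and 50.2 in the control ASO livers and at 123, 105, 81.6 and 111 in the Upf3b-ASO livers. The lowest Upf3b-ASO liver was thus well above the highest of the others, and the DPBS and control ASO livers overlapped. The mean went from 51.1 ± 9.53 CPM (SD, n = 4) after the control ASO to 105 ± 17.4, a fitted rise of 2.07-fold (95% interval 1.75 to 2.45, edgeR adjusted p = 0.000629). Against DPBS the rise was 2.10-fold, with an interval of 1.77 to 2.48 (edgeR adjusted p = 0.000506). With 526 to 1935 counts a liver, *Ccng1* was the best covered of the 4 genes that rose, and its window holds the paired half-sites printed above.

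*Eda2r* encodes a receptor of the tumor necrosis factor receptor family, for the ectodysplasin A2 ligand. Its level was 2.97, 1.76, 1.72 and 1.85 CPM in the DPBS livers, 3.44, 2.09, 1.87 and 2.03 in the control ASO livers and 16.4, 7.38, 5.06 and 11.2 in the Upf3b-ASO livers. The Upf3b-ASO livers differed among themselves by more than the reference livers did, but none overlapped with them. The count was 26 to 63 in the reference livers and 76 to 229 in the Upf3b-ASO livers. *Eda2r* rose 4.27-fold against the control ASO (95% interval 2.77 to 6.58, edgeR with the count minimum, adjusted p = 0.00324) and 4.80-fold against DPBS (3.11 to 7.42, adjusted p = 0.00207).

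*Phlda3*, a pleckstrin homology domain protein that restrains AKT signalling, was among the members with the lowest counts. It stood at 0.677, 0.552, 0.355 and 0.901 CPM in the DPBS livers, at 1.42, 1.02, 0.649 and 1.02 after the control ASO and at 4.80, 4.45, 1.87 and 2.45 after the Upf3b-ASO. Both female Upf3b-ASO livers were the highest and the males were closer to the control range, without entering it. These levels rest on 6 to 26 counts in the reference livers and 28 to 82 in the Upf3b-ASO livers. *Phlda3* rose 3.22-fold against the control ASO (2.12 to 4.90, edgeR with the count minimum, adjusted p = 0.00907) and 5.16-fold against DPBS (3.33 to 7.99, adjusted p = 0.00173).

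*Bax*, which permeabilises the mitochondrial outer membrane in apoptosis, rose by the smallest factor of the 4. Its level was 9.63, 9.38, 9.30 and 9.85 CPM in the DPBS livers, 10.5, 8.03, 8.72 and 8.90 in the control ASO livers and 13.7, 11.7, 11.5 and 15.5 in the Upf3b-ASO livers. The gap between the highest reference liver and the lowest Upf3b-ASO liver was 10.5 to 11.5 CPM. The rise was 1.45-fold against the control ASO (1.22 to 1.71, edgeR adjusted p = 0.0221) and 1.37-fold against DPBS (1.16 to 1.62, adjusted p = 0.0433). With either minimum, the call against the control ASO was lost when control ASO replicate 2, Upf3b-ASO replicate 1 or Upf3b-ASO replicate 4 was left out (edgeR adjusted p = 0.0636, 0.0621 and 0.0791 with the TPM minimum). With the TPM minimum, the call against DPBS was lost without any one of 8 livers, the exceptions being control ASO replicates 1, 2 and 3 and Upf3b-ASO replicate 3 (highest adjusted p = 0.147). With the count minimum it stood near the threshold with all livers (edgeR adjusted p = 0.0497) and was lost without any one of 10 livers, the exceptions being control ASO replicates 1 and 3.

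**Figure D2:**
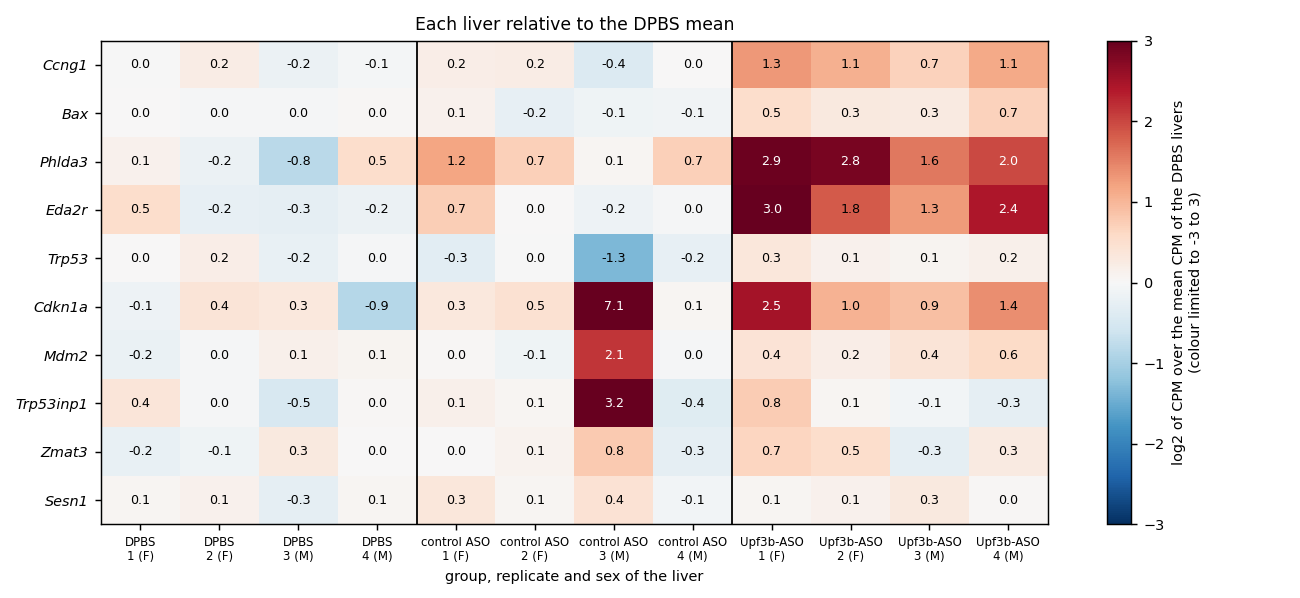
Each of the 12 livers relative to the mean of the DPBS livers, for the 10 p53 genes, as log2 of the ratio of CPM values. Columns are livers by group, replicate and sex (F or M), rows are genes, and the colour is limited to 3 in either direction. Ccng1, Bax, Phlda3 and Eda2r are raised in all 4 Upf3b-ASO livers, and Cdkn1a, Trp53inp1 and Mdm2 are raised most in control ASO replicate 3.

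*Trp53* itself was not called by edgeR with all livers. Its mRNA stood at 7.03, 8.02, 5.98 and 6.83 CPM in the DPBS livers, 5.58, 6.90, 2.74 and 5.86 in the control ASO livers and 8.75, 7.65, 7.33 and 7.75 in the Upf3b-ASO livers. The Upf3b-ASO livers lay above the control ASO livers but overlapped with the DPBS livers. The fitted difference was 1.5-fold against the control ASO (1.14 to 1.98, edgeR adjusted p = 0.091) and 1.13-fold against DPBS (0.863 to 1.48, adjusted p = 0.659). Against the control ASO it was called higher by DESeq2 (log2 difference 0.58, DESeq2 adjusted p = 0.036), which called 7.51% of all genes higher, and by edgeR without control ASO replicate 3 (0.39, edgeR adjusted p = 0.035). p53 is regulated largely through its protein, which was not measured here.

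On the CPM scale the other 5 members were led by control ASO replicate 3. In CPM that liver lay above the 11 others in 5 of the 10 genes, *Cdkn1a*, *Mdm2*, *Sesn1*, *Zmat3* and *Trp53inp1*, and below them in *Ccng1* and *Trp53*. It lay above the 11 others in 30.1% of the 14058 genes, so the count over the members is to be read against that share. Its library size was scaled by a TMM factor of 0.775, against 0.953 to 1.117 in the other livers, which raises its CPM. In TPM it was not the highest for *Sesn1* (8.60, with 11.9 in control ASO replicate 1) or *Zmat3* (1.45, with 2.56 in Upf3b-ASO replicate 2). Its summed acute-phase level, given above, moved with these values, and its part in them was not tested.

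*Cdkn1a* encodes the cyclin-dependent kinase inhibitor p21, the main effector of p53-dependent cell cycle arrest. It stood at 0.520, 0.752, 0.711 and 0.318 CPM in the DPBS livers, at 0.711, 0.792, 77.8 and 0.597 in the control ASO livers and at 3.23, 1.19, 1.07 and 1.52 in the Upf3b-ASO livers. A single control liver was thus 111 times the mean of the 3 other control livers, with 1079 counts where those had 10 to 14, and the Upf3b-ASO livers, with 16 to 45 counts, lay above all 7 remaining livers. With all livers the log2 difference was -2.53 ± 1.59 (SE) against the control ASO (edgeR with the count minimum, adjusted p = 0.348) and 1.78 ± 1.68 against DPBS (adjusted p = 0.625). Without control ASO replicate 3 it was 1.39 ± 0.39, a 2.61-fold rise (1.53 to 4.45, adjusted p = 0.0326), and against DPBS 1.58 ± 0.36 (adjusted p = 0.0101).

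*Mdm2* followed the same order at a higher level. It stood at 25.7, 28.9, 32.8 and 31.4 CPM in the DPBS livers, at 30.2, 27.3, 131 and 28.8 in the control ASO livers and at 39.5, 34.2, 39.1 and 44.1 in the Upf3b-ASO livers. All 4 Upf3b-ASO livers were above the DPBS livers and above the control ASO livers other than replicate 3. The fitted ratio against the control ASO was 0.791 (0.456 to 1.37, edgeR adjusted p = 0.616) with all livers, and 1.36 (1.21 to 1.52, adjusted p = 0.00389, count minimum) without control ASO replicate 3.

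*Trp53inp1* encodes a stress-induced nuclear protein that acts in apoptosis and autophagy. It was the most abundant member, at 227, 172, 127 and 181 CPM in the DPBS livers, 195, 183, 1620 and 138 in the control ASO livers and 301, 185, 166 and 147 in the Upf3b-ASO livers. Apart from control ASO replicate 3, at 9.41 times the mean of the 3 other control livers, the groups overlapped. The ratio against the control ASO was 0.416 (0.148 to 1.17, edgeR adjusted p = 0.3), and 1.23 (0.985 to 1.54, adjusted p = 0.244, count minimum) without that liver.

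*Sesn1* encodes a sestrin, an inhibitor of mTORC1 signalling, and *Zmat3* an RNA-binding zinc finger protein. *Sesn1* stood at 21.6, 22.6, 17.1 and 21.5 CPM in the DPBS livers, 26.1, 21.7, 28.0 and 19.6 in the control ASO livers and 21.5, 22.7, 25.3 and 21.3 in the Upf3b-ASO livers. *Zmat3* stood at 4.84, 5.17, 6.87 and 5.72, at 5.68, 6.05, 9.66 and 4.66, and at 8.89, 8.14, 4.66 and 6.82 CPM in the same order. The groups overlapped for both genes. The ratio against the control ASO was 0.953 for *Sesn1* (0.797 to 1.14, edgeR adjusted p = 0.771) and 1.12 for *Zmat3* (0.795 to 1.57, count minimum, adjusted p = 0.736), intervals that still include moderate differences.

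Leaving out control ASO replicate 3 therefore took the number of members called higher against the control ASO from 4 to 7 of 10, adding *Cdkn1a*, *Mdm2* and *Trp53*, while the share of all genes called higher went from 2.82% to 7.70%. Against DPBS it went from 4 to 6, adding *Cdkn1a* and *Mdm2*, with a background of 9.93%. The median log2 difference of the 10 members against the control ASO was 0.36 with all livers, beside -0.03 over all 14058 genes.

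**Figure D3:**
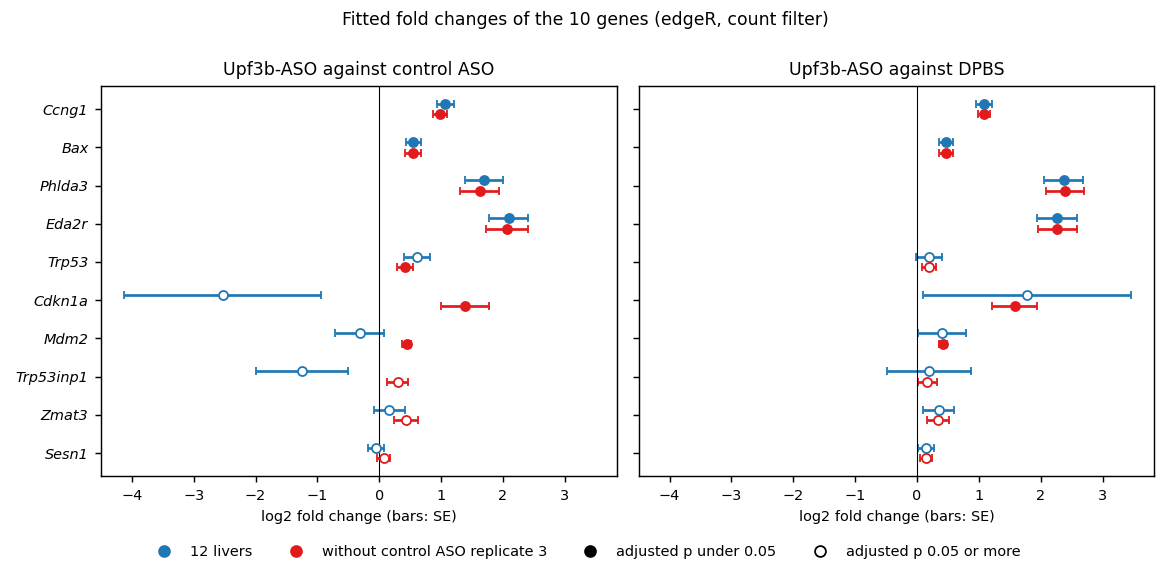
Fitted log2 fold change of each of the 10 p53 genes for Upf3b-ASO against control ASO (left) and against DPBS (right), from edgeR with the count minimum, with all 12 livers and without control ASO replicate 3. Bars are standard errors and filled points have an adjusted p under 0.05. Ccng1, Bax, Phlda3 and Eda2r are filled in both panels and both fits, and the standard error of Cdkn1a against the control ASO falls from 1.59 to 0.39 when the liver is left out.

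The control ASO was not distinguishable from DPBS for these genes. The livers of both groups overlapped in all 10 members, and 0 of 10 were called (edgeR, count minimum), with 1 member, *Cdkn1a*, at an unadjusted p under 0.05. DESeq2 also called 0, over the 4 members for which it gave an adjusted p. Over all genes 0.00711% were called with the count minimum and 0.0113% with the TPM minimum. Without control ASO replicate 3, edgeR with the count minimum called 0 of 10 members and 0.0213% of all genes, and 0 members had an unadjusted p under 0.05. With all livers, the estimate for *Phlda3* was 1.60-fold (1.01 to 2.53, edgeR adjusted p = 0.678), and that for *Ccng1* was 1.01-fold (0.850 to 1.19, adjusted p = 0.981). The *Phlda3* interval leaves out 1 although its unadjusted p was not under 0.05, since these normal intervals are narrower than the test implies.

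Sex made no called difference in the members with all livers. Males against females gave 0 of 10 calls in edgeR with the count minimum, 2 at an unadjusted p under 0.05 (*Ccng1* and *Phlda3*) and 0 in DESeq2, where edgeR called 7.14% of all genes (10.0% with the TPM minimum). Without control ASO replicate 3, *Trp53inp1* was called lower in males, at a log2 difference of -0.46 ± 0.13 (SE, edgeR adjusted p = 0.0349), where 16.2% of all genes were called. The effect of the Upf3b-ASO against the control ASO did not differ detectably between males and females. The interaction gave 0 of 10 calls in edgeR and in DESeq2, with *Cdkn1a* and *Trp53inp1* at an unadjusted p under 0.05, and 0% of all genes were called in it, although 1035 of 14058 had an unadjusted p under 0.05. With 2 livers a sex and group this interaction is imprecise, as the ratio of male to female effects shows for *Eda2r* (0.978, interval 0.369 to 2.59) and *Phlda3* (0.679, 0.307 to 1.5).

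Across the 12 livers the members that rose were correlated, which their shared rise in the Upf3b-ASO livers by itself brings about in part. The Spearman correlation of CPM was 0.94 for *Phlda3* and *Eda2r*, 0.85 for *Ccng1* and *Phlda3*, 0.82 for *Ccng1* and *Eda2r*, and 0.69, 0.73 and 0.76 for *Bax* with *Ccng1*, *Phlda3* and *Eda2r*, a description over livers that share their treatment. *Cdkn1a* correlated with *Mdm2* at 0.78 and with *Ccng1* at 0.47, or 0.91 over the 11 livers without control ASO replicate 3. Of the 14058 genes, those whose levels followed *Cdkn1a* most closely over the 12 livers by rank were *Nlrc5* (0.98), *Rabl3* (0.96), *Bcas2* (0.94), *Xpo6* (0.92) and *Srrd* (0.90), none a listed p53 target. *Nlrc5*, a regulator of MHC class I genes, was at 54.3 CPM in control ASO replicate 3, 30.9 to 36.0 in the other control livers, 27.8 to 35.9 in the DPBS livers and 36.8 to 51.1 in the Upf3b-ASO livers.

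Since the treatment depletes an NMD factor, the isoforms of the members were examined. The deposited files hold 37 transcripts of the 10 genes, and 21 passed the minimum for a transcript-level test. Ccng1-201, the coding transcript of *Ccng1*, was the only one called against the control ASO, at a log2 difference of 1.06 ± 0.14 (edgeR adjusted p = 0.00996), where 0.327% of all transcripts were called higher. Phlda3-201, at 1.71 ± 0.38 (edgeR adjusted p = 0.0757), and Bax-201, the 1 *Bax* transcript in the files, at 0.56 ± 0.15 (adjusted p = 0.129), missed the threshold when adjusted over 32673 transcripts. DESeq2 called both (DESeq2 adjusted p = 0.000886 for Phlda3-201 and 0.00951 for Bax-201), where it called 2.68% of all transcripts higher. Against DPBS edgeR called Ccng1-201 and also Phlda3-201 (log2 difference of the latter 2.42 ± 0.40, adjusted p = 0.0211), where 0.297% of all transcripts were called higher. Ccng1-202, annotated as a processed transcript, stood at 2.27 to 6.44 TPM in the Upf3b-ASO livers, at up to 1.32 in the control ASO livers and at up to 2.68 in the DPBS livers, and was not called (log2 difference 3.06 ± 1.47, edgeR adjusted p = 0.446).

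Shares of a gene's TPM were tested for 9 isoforms of *Mdm2*, *Sesn1* and *Trp53inp1*. They were chosen as neither minor nor nearly the whole of a gene that reached a minimum TPM in every liver. Other isoforms of these genes, such as Mdm2-202, Mdm2-205 and Mdm2-208, were not tested. None differed from the control ASO at p < 0.05 in a two-sided exact permutation test of 4 against 4 livers, whose smallest possible p is 0.0286. Mdm2-209, the isoform annotated as a substrate of NMD, made up 24.9, 21, 25.7 and 23.4% of the *Mdm2* TPM in the control ASO livers and 30.2, 18.4, 26.9 and 21.6% in the Upf3b-ASO livers. The groups overlapped, with a difference of 0.49 percentage points (exact permutation p = 0.83, adjusted p = 0.943 over the 9 isoforms). Mdm2-209 was at 30.4, 19.8, 20 and 19.8% in the DPBS livers, so the spread among untreated livers was as wide.

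The largest shift of share was in *Trp53inp1*. Trp53inp1-202, annotated as a processed transcript without a coding sequence, made up 35.8, 48.8, 40.2 and 40.6% in the DPBS livers, 31.4, 74.0, 25.1 and 47.5% in the control ASO livers and 55.5, 61.9, 58.9 and 51.0% in the Upf3b-ASO livers. The Upf3b-ASO livers lay above the DPBS livers and inside the range of the control ASO livers. The difference was 12.32 points against the control ASO (exact permutation p = 0.314, adjusted p = 0.943) and 15.47 points against DPBS (exact permutation p = 0.0286, adjusted p = 0.171). The coding isoform Trp53inp1-201 moved the other way, by -8.94 points against the control ASO (exact permutation p = 0.286). The high *Cdkn1a* level of control ASO replicate 3 lay in Cdkn1a-201 at 33.4 TPM and Cdkn1a-203 at 9.59 TPM, and Cdkn1a-202 was at 0 there.

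**Figure D4:**
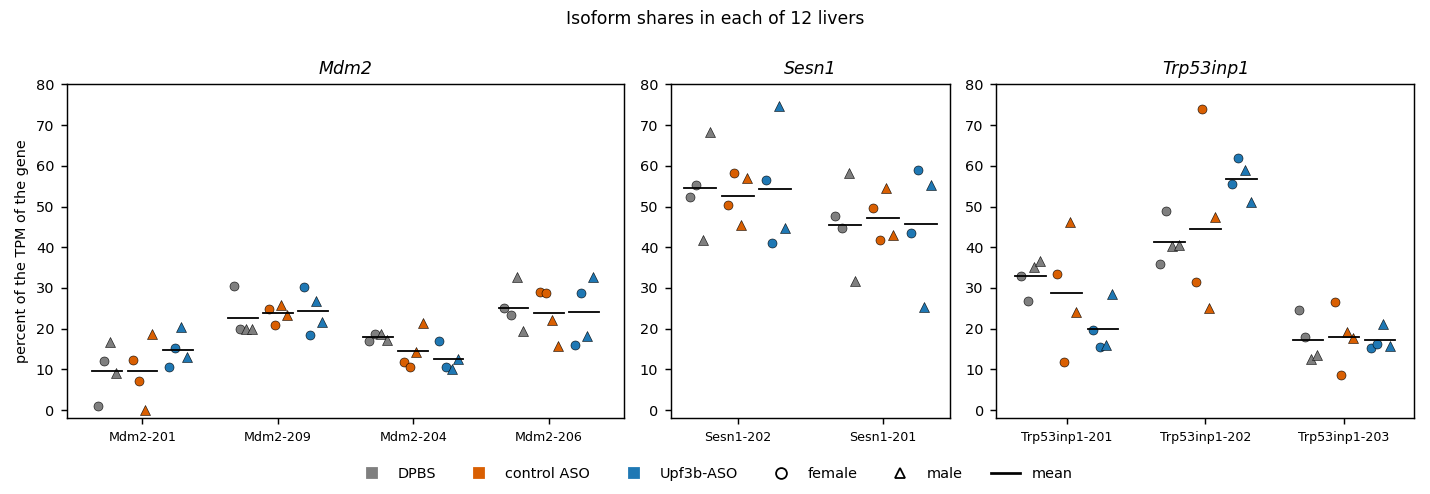
Share of the TPM of the gene held by each of the 9 tested isoforms of Mdm2, Sesn1 and Trp53inp1, in percent, in each liver by group. Points are single livers and short lines are group means. The groups overlap for every isoform against the control ASO, and Mdm2-209, annotated as an NMD substrate, spans 18.4 to 30.2% after the Upf3b-ASO.

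The wider p53 pathway was described from lists of other targets, regulators and proliferation genes. Of 41 other targets, 40 could be tested with the count minimum, and 2 were called against the control ASO, where 6.48% of all genes were called in either direction and 2.82% as higher. Both were higher: *Steap3*, an endosomal ferrireductase, and *Rps27l*, a ribosomal protein paralog. *Steap3* stood at 9.52, 9.98, 8.29 and 9.96 CPM in the DPBS livers, 9.78, 7.75, 4.97 and 7.47 after the control ASO and 12, 11.1, 13.1 and 13 after the Upf3b-ASO. The Upf3b-ASO livers lay above all others, and the DPBS and control ASO livers overlapped. It rose 1.68-fold (1.33 to 2.11, edgeR adjusted p = 0.026). *Rps27l* rose 1.32-fold (1.14 to 1.52, adjusted p = 0.0472), from 71.0, 68.2, 88.5 and 91.7 CPM to 88.9, 99.8, 109 and 117, with a small overlap. The call for *Steap3* was lost without control ASO replicate 2 or Upf3b-ASO replicate 1, 3 or 4 (edgeR adjusted p up to 0.0971). With the TPM minimum, *Aifm2*, an oxidoreductase that protects against lipid peroxidation, was also called, as lower (log2 difference -0.37 ± 0.09, edgeR adjusted p = 0.0203). Against DPBS, where 5.93% of all genes were called, the 2 called of the 40 were *Aen*, an apoptosis-enhancing nuclease, at 1.67-fold (1.32 to 2.11, adjusted p = 0.0295), and *Siva1*, an apoptosis regulator, at 1.84-fold (1.36 to 2.5, adjusted p = 0.0432). *Siva1* stood at 2.86, 2.51, 2.84 and 2.44 CPM in the DPBS livers, 4.97, 4.69, 2.09 and 3.70 after the control ASO and 5.16, 4.18, 4.93 and 5.16 after the Upf3b-ASO. The Upf3b-ASO and control ASO livers thus overlapped, and *Siva1* was not called between them (edgeR adjusted p = 0.335).

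By role, the calls against the control ASO were 0 of 7 targets for cell cycle arrest, 0 of 11 for apoptosis, 0 of 6 for DNA repair, 1 of 10 for metabolism and redox and 1 of 6 secreted or other targets, with median log2 differences of -0.63, 0.08, 0.43, -0.19 and 0.16. The counts at an unadjusted p under 0.05 were 3 in each of these 5 lists, where 24.2% of all genes had such a p. None of the 12 regulators of p53 was called (median -0.08, 1 at an unadjusted p under 0.05). DESeq2, which called 13.5% of all genes, called 9 of the 40 targets, 4 higher and 5 lower, among them *Btg2* and *Gadd45a* for arrest, *Bid* for apoptosis and *Polh* for repair, and 1 of the regulators, *Atr*. The low median of the arrest targets and the log2 differences of 5 genes below -2, singled out after their values were seen (*Gadd45a* at -3.18, *Gdf15* at -3.14, *Btg2* at -2.94, *Ddit4* at -2.62 and *Rrm2* at -2.01), were not called by edgeR. Without control ASO replicate 3 these 5 log2 differences lay between -0.31 (*Ddit4*) and 0.72 (*Gdf15*).

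Among 17 proliferation genes, which p53 and p21 hold down when active, 2 were called higher against the control ASO and none lower, where 2.82% of all genes were called higher. Both are subunits of the replicative helicase. *Mcm6* stood at 10.3, 12.4, 6.40 and 8.95 CPM in the DPBS livers, 10.9, 9.84, 8.58 and 6.39 after the control ASO and 19.7, 22.9, 17.5 and 27.9 after the Upf3b-ASO. The Upf3b-ASO livers lay above all others, and the DPBS and control ASO livers overlapped. It rose 2.55-fold (1.93 to 3.37, edgeR adjusted p = 0.00322). *Mcm2* rose 1.81-fold (1.33 to 2.47, adjusted p = 0.0494), a call that was lost without any single liver other than DPBS replicate 3 or control ASO replicate 3. The median of the 17 was 0.57. Against DPBS *Mcm6*, *Cdc20* (3.77-fold, adjusted p = 0.0402) and *Top2a* (1.9-fold, adjusted p = 0.0488) were called higher, where 2.47% of all genes were. *Cdc20* rests on few counts, and Upf3b-ASO replicate 1, at 0.645 CPM with 9 counts, lay inside the DPBS range of 0.416 to 0.948. *Top2a* stood at 9.46 to 17.9 CPM after the Upf3b-ASO and at 6.15 to 12.2 after the control ASO, so these 2 groups overlapped. The summed level of the 17 genes was 104 to 147 CPM in the Upf3b-ASO livers, 64.6 to 96.4 in the DPBS livers, 66.7 to 115 in 3 control ASO livers and 178 in control ASO replicate 3. That sum does not stand for each gene. In that liver *Mcm2* (2.59 CPM), *Mcm6* (8.58) and *Top2a* (6.78) were below the mean of the 3 other control livers and *Cdc20* (1.23) was above it. Leaving the liver out moved the log2 difference of *Rrm2* against the control ASO from -2.01 to -0.05.

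Without control ASO replicate 3, 14 of the 69 tested genes of these lists were called against the control ASO, where 16.4% of all genes were called. The 6 other targets called higher were *Bid* (log2 difference 0.56), *Fas* (0.43) and *Aen* (0.68), which act in apoptosis, *Polh* (0.47), a translesion polymerase, *Steap3* (0.59) and *Rps27l* (0.43). *Aifm2* (-0.32) and *Pank1* (-0.40), an enzyme of coenzyme A synthesis, were called lower. Of the regulators, the checkpoint kinases *Chek1* (1.49) and *Atr* (0.32) were called higher and *Atm* (-0.27) lower. *Mcm2*, *Mcm3* and *Mcm6* were the proliferation genes called. Between the sexes *Pml*, which organises nuclear bodies, was the only gene of these lists that edgeR called with the count minimum and all livers, lower in males (log2 difference -0.45 ± 0.12, edgeR adjusted p = 0.0425), where 7.14% of all genes were called. *Plk3* was also called, as higher in males, by DESeq2 and by edgeR with no filter, and *Ei24*, as lower, by DESeq2 with the TPM minimum.

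**Figure D5:**
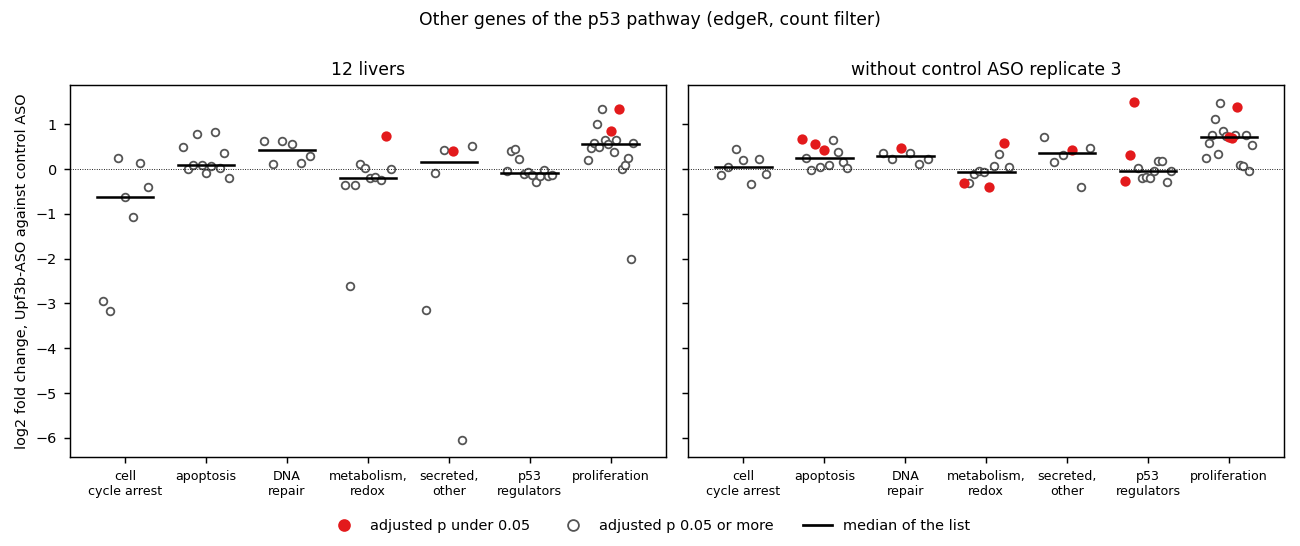
Log2 fold change of the other listed genes of the p53 pathway for Upf3b-ASO against control ASO, by role, from edgeR with the count minimum, with all 12 livers and without control ASO replicate 3. Points are genes, filled where the adjusted p is under 0.05, and lines are list medians. Genes are not named, and none lies below -2 once the liver is left out.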

How the data were processed

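The deposited tables hold, for each liver, 92468 mouse transcripts with estimated counts, TPM and lengths. Per the labels and the study's methods, the authors sequenced TruSeq libraries on a HiSeq2500, made reads with bcl2fastq 2.17.1.14 and estimated the counts and TPM with Salmon 0.7.2 against Ensembl 81 cDNA (GRCm38). Salmon divides shared reads between isoforms by a model, which limits isoform values most. Salmon detected the library type itself, and the type it found was not given in the sources used here.

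The deposited estimated counts were summed per gene through GENCODE M21 (98.1% of transcripts, 97.51 to 99.26% of counts joined) and rounded. Genes with at least 5 TPM in 4 of 12 livers, the minimum of the main design, or at least 10 estimated counts in 4, were fitted with edgeR 4.0.16 (R 4.3.3), TMM factors, group and sex, quasi-likelihood test, Benjamini-Hochberg adjustment, threshold 0.05. Intervals are 95% normal intervals from the standard error. They are narrower than the distribution of the quasi-likelihood test would give, so the p-values and not the intervals decide the calls. Transcripts needed 1 TPM in 4 livers. CPM use TMM-scaled library sizes. Isoform shares were tested by exact permutation (scipy 1.17.1). Alternatives were DESeq2 1.42.0 and its size factors, no filter, a replicate block and leaving out each liver. The code was tested on simulated counts. No pair of livers of a group agreed within sampling noise (chi-square per degree of freedom 15.3 to 360), so n counts animals. No other gene in the files overlaps a member.

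The members and the wider lists were chosen with earlier results of these data known. The text names all 10 members, the called genes of the wider lists and the 5 genes ranked closest to *Cdkn1a*. The values of 1 listed gene are not reported here. Marker lists for hepatocytes, 6 other cell types and the acute phase served as checks of the tissue. Intervals cover the spread between these livers.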

Additional observations from a re-analysis of the deposited data

Results flagged for a closer look

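In 90 groups of 4 livers, 1 for each member, named gene or isoform and each treatment, 9 held a liver whose gap to the nearest other exceeded the 95% critical value of Dixon for 4 values, which chance alone gives in about 1 in 20 groups. 4 of the 9 were control ASO replicate 3: *Cdkn1a* at 77.8 CPM with the other control livers at 0.597 to 0.792, *Mdm2* at 131 with the others at 27.3 to 30.2, *Trp53inp1* at 1620 with the others at 138 to 195, and *Aen* at 23.4 with the others at 14.6 to 15.6. *Eda2r* was flagged in both reference groups, each time in female replicate 1, at 2.97 CPM in DPBS (others 1.72 to 1.85) and 3.44 after the control ASO (others 1.87 to 2.09). *Aifm2* stood at 27.4 CPM in DPBS replicate 3 (others 24.8 to 25.1). Of the isoform shares, Mdm2-209 made up 30.4% of the *Mdm2* TPM in DPBS replicate 1 (others 19.8 to 20%), and Trp53inp1-203 made up 21.2% of the *Trp53inp1* TPM in Upf3b-ASO replicate 3 (others 15.3 to 16.2%).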

How the results depend on the processing

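Of 1068 alternative values, 919 were classed as unchanged and 23 changed direction. A fold change or share was classed as unchanged if it kept its direction and its side of the threshold. A number of calls was so classed if it stayed close to the main number, so a call could be gained or lost within it. *Ccng1*, *Phlda3* and *Eda2r* kept their call in both comparisons under every alternative run. Against the control ASO, the members called went from 2 with the TPM minimum to 4 with the count minimum or no filter and to between 1 and 4 when 1 liver was left out, and with the count minimum from 4 to 7 without control ASO replicate 3. Against DPBS they went from 2 to 4 with the count minimum and to 1 to 3 without 1 liver. Males against females gave 0 to 1 without 1 liver, the 1 being without control ASO replicate 3, also with the count minimum. The male-female interaction gave 0 to 3, and 5 with the count minimum, the highest without control ASO replicate 4, which leaves replicate 3 as the single male control. Isoforms called went from 1 to 3 with DESeq2, to 2 with no filter and to 1 to 2 without 1 liver. The wider lists went from 3 called to 8 with DESeq2 and 1 to 9 without 1 liver, and with the count minimum from 4 to 12 with DESeq2, to 14 without control ASO replicate 3, to 2 without DPBS replicate 1, 2 or 4 or Upf3b-ASO replicate 2, and to 1 without control ASO replicate 2 or Upf3b-ASO replicate 3 or 4. The cause was not tested.

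Differences that changed sign were not called in the main fits. The log2 difference of *Cdkn1a* against the control ASO ran from -3.45 to 1.39 without 1 liver, that of *Mdm2* from -0.56 to 0.42, of *Sesn1* from -0.15 to 0.05 and of *Trp53inp1* from -1.70 to 0.28, the highest of each without control ASO replicate 3. *Aifm2* and *Rps27l* (control ASO) and *Aen*, *Siva1*, *Cdc20* and *Top2a* (DPBS) each lost their call without any one of several livers. Against DPBS *Trp53inp1* ran from -0.20 to 0.45. In percentage points of share, without 1 liver, Mdm2-209 ran from -1.47 to 2.45, Mdm2-204 from -3.42 to 0.36, Mdm2-206 from -2.86 to 2.73, Sesn1-202 from -5.24 to 5.99, Sesn1-201 from -5.99 to 5.24 and Trp53inp1-203 from -3.98 to 1.96. With shares of estimated counts Mdm2-209 was at -1.77 and Mdm2-206 at -0.36, and against DPBS Mdm2-206 was at -1.17, Sesn1-202 at -0.21 and Sesn1-201 at 0.21.

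Replicate numbers are shared between the groups, but same-numbered livers showed little joint deviation beyond their sex (within-sex correlation -0.11 to 0.19, over 0.1 in 2 of 12 pairs). Both pairs of a sex necessarily share a single value, so those 2 pairs are not independent and this check is a weak one. With a replicate block 2 members were called against the control ASO, and with the count minimum 4, and 3 against DPBS, where *Bax* was lost. For the interaction, whose term the block leaves estimable, 0 were called.

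Depth limits *Cdkn1a* and *Phlda3* most, with 6 to 26 counts in the reference livers, control ASO replicate 3 excepted for *Cdkn1a*, and isoform values rest on how Salmon divides reads.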
